A study of Oryza sativa with 6 samples.

Results

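The genes described here make the labdane-related diterpenoid phytoalexins of rice, small terpene antimicrobials that the plant builds after attack. They are CPS2, CPS4, KSL4, KSL7, CYP99A2, CYP99A3, CYP76M7, CYP71Z6, CYP71Z7 and OsMAS, 10 genes found by symbol or synonym in the reference gene table, of the 17905 genes to which a probe set was assigned. They were read by 11 of the 57381 probe sets of the Affymetrix rice genome array, 2 for KSL7 and 1 for each of the others. The genes were chosen by their signals in the same RNAi and control arrays, lower on average in RNAi, from earlier results of these data. Their differences between the groups, and those of single RNAi arrays from the other arrays, are therefore given as a description.

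The study compared 3 RNAi arrays with 3 control arrays, all from the indica rice variety Minghui63. The RNAi samples are titled transgenic line LM1, LM2 and LM3 and carry an inverted repeat against OsSRT1, built from 412 bp of its 3' untranslated region. OsSRT1 encodes a sirtuin, a NAD-dependent deacetylase. The controls, numbered 1 to 3, are titled Minghui63 control and described as wild type plants. RNA came from young leaves of seedlings aged 11 days, before the RNAi plants formed lesions. The sources used here name no promoter for the repeat, and the labels do not say outright whether LM1, LM2 and LM3 number separate lines or samples. They are called lines here after their titles, with 1 array each, so a difference between them has no replicate check. The submitters call the arrays biological repeats, and whether each came from separately grown plants is not stated, so the spread between arrays may be in part technical.

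Labdane-related diterpenoids are made from geranylgeranyl diphosphate, which a copalyl diphosphate synthase folds into a first ring system with either ent or syn geometry. A kaurene synthase-like enzyme closes the remaining ring, and cytochrome P450 enzymes and a dehydrogenase then add oxygen. In rice the genes of the ent route to phytocassanes lie together on chromosome 2 and those of the syn route to momilactones on chromosome 4. Gibberellins, the growth hormones, branch from the same precursors through the ent route.

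Across these genes, line LM1 stood apart from every other array. All 10 probe sets with enough signal to be tested had their lowest value of the 6 arrays in LM1. Over all 28597 tested probe sets, LM1 was the lowest array at 23.8%. A low LM1 value lowers the RNAi mean by which the genes were chosen, so the choice favoured genes low in LM1. The median log2 difference of the 10 probe sets from the mean of the 3 controls was -1.84 in LM1, -0.21 in LM2 and -0.30 in LM3, each from scaled signal with 16 added. The median over all tested probe sets was 0.01 in LM1, 0.06 in LM2 and 0.05 in LM3. In LM1, 8 of the 10 were lower than the control mean by 1 or more on the log2 scale, a difference met by 5.08% of all tested probe sets. In LM2 it was 1 of 10 against 2.28% of all, and in LM3 0 of 10 against 2.78%.

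**Figure D1:**
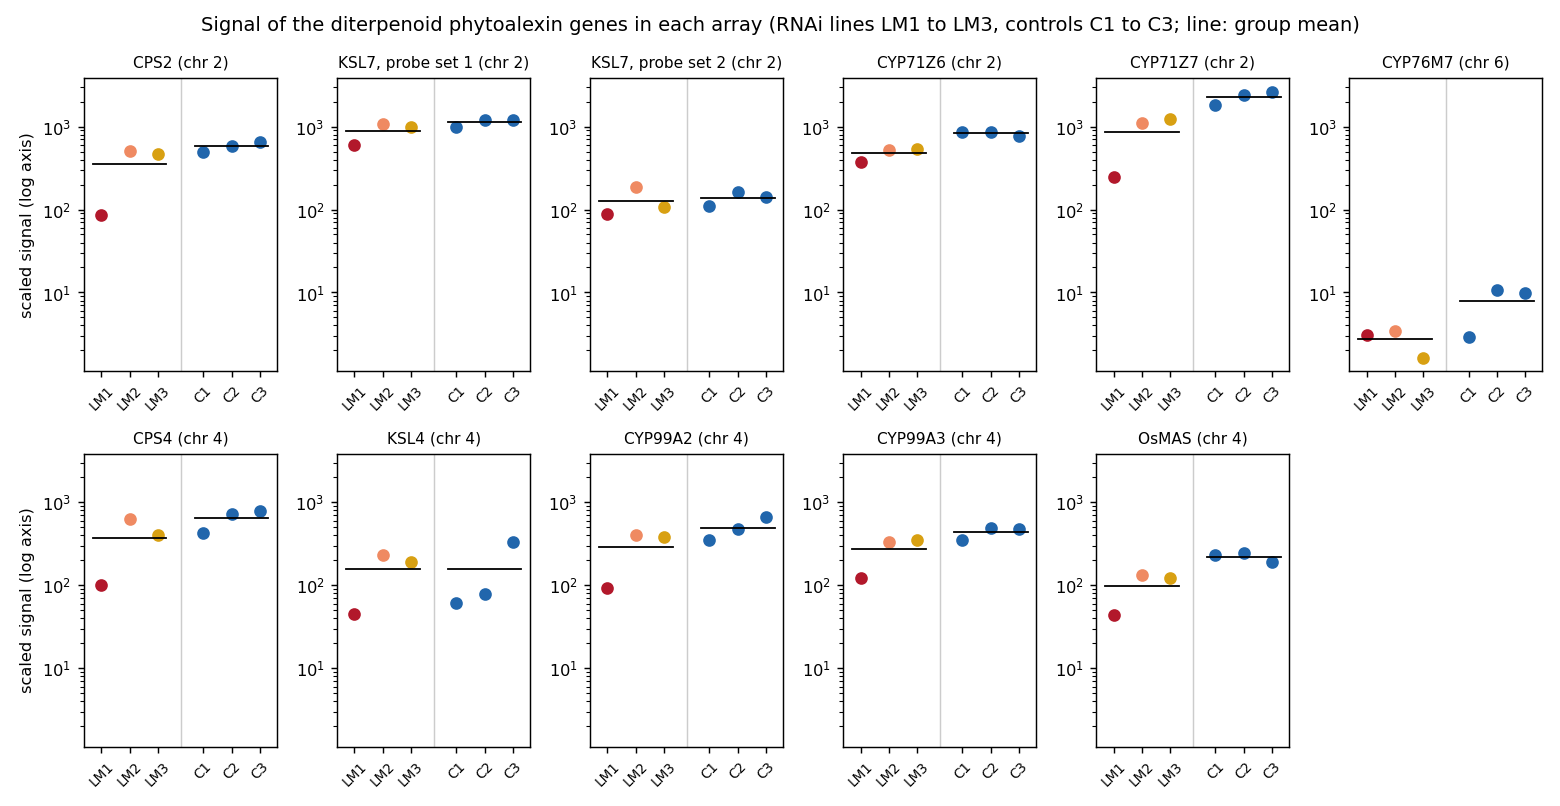
Scaled signal on a log axis for each of the 11 probe sets in the 3 RNAi lines (LM1 to LM3) and the 3 controls (C1 to C3), with the mean of each group as a line. LM1 holds the lowest point in every panel apart from CYP76M7, whose signals lie between 1.62 and 10.7, and KSL4 is the gene whose controls are spread widest.

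Compared as groups with limma across the 28597 tested probe sets, 0 of the 10 passed an adjusted p of 0.05, beside 2.1% of all probe sets (1.09% higher and 1.01% lower in RNAi). The adjusted p ran from 0.064 to 0.963, and 3 of the 10 had an unadjusted p under 0.05, as had 15.6% of all. SAM, the test that the submitters name, also called 0 of the 10, and 1.79% of all. The median log2 fold change, RNAi minus control, was -0.86 over the 10 and 0.03 over all tested probe sets. Of the 10, 9 had a lower mean in RNAi, as had 45.7% of all. All 3 RNAi arrays lay below all 3 controls at 3 of the 10 (CYP71Z6, CYP71Z7 and OsMAS), beside 9.88% of all probe sets. These figures describe genes chosen for this contrast and carry no test of it. Since leaves were measured whole, fewer cells of a type and less RNA per cell cannot be told apart.

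The cyclases that open each route were both far down in LM1. CPS2 makes ent-copalyl diphosphate for the phytoalexins, while its relative CPS1 does so for gibberellins. CPS2 had a scaled signal of 86.3, 509 and 464 in RNAi lines LM1, LM2 and LM3, against 492, 590 and 655 in controls 1, 2 and 3. LM1 lay far below all other arrays, and LM2 overlapped the controls. The group difference was a log2 fold change of -1.001 ± 0.54 (SE, n = 3 per group). In LM1 the signal was 5.78-fold lower than the control mean on the scale with 16 added, and over LM2 and LM3 together 1.18-fold lower.

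CPS4 makes syn-copalyl diphosphate, which commits the precursor to momilactones. Its signal was 99.5, 629 and 398 in LM1, LM2 and LM3, against 428, 723 and 782 in controls 1, 2 and 3. Here too LM1 alone was far down, LM2 lay within the control range and LM3 just below it. The log2 fold change was -1.03 ± 0.55, and LM1 was 5.54-fold below the control mean.

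The next cyclases, KSL7 and KSL4, were also lowest in LM1. KSL7 turns ent-copalyl diphosphate into ent-cassadiene, the backbone of phytocassanes. Its brighter probe set read 603, 1085 and 989 in LM1, LM2 and LM3, against 974, 1213 and 1192 in controls 1, 2 and 3. Its dimmer probe set read 88.4, 187 and 107 in LM1, LM2 and LM3, against 110, 163 and 140 in controls 1, 2 and 3. Both were lowest in LM1, by 1.84-fold and 1.46-fold against the control mean, the smallest LM1 differences among the 10. Their log2 fold changes between the groups were -0.37 ± 0.22 and -0.14 ± 0.30, and the second was 0.05 without LM1.

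KSL4 makes syn-pimaradiene, the backbone of momilactones. Its signal was 45.2, 229 and 191 in LM1, LM2 and LM3, against 61.7, 77.6 and 332 in controls 1, 2 and 3. LM2 and LM3 lay above 2 of the 3 controls, and control 3 stood far above the other controls. The log2 fold change was 0.10 ± 0.65, the only positive value among the 10, and it ranged from -0.31 to 0.77 when arrays were left out in turn. LM1 was nevertheless 2.23-fold below the control mean. The direction of KSL4 between the groups thus turned with the arrays counted.

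The cytochrome P450 genes of the momilactone route followed CPS4. CYP99A2 and CYP99A3 are closely related enzymes that oxidise syn-pimaradiene. CYP99A2 had 93.1, 398 and 386 in LM1, LM2 and LM3, against 350, 470 and 666 in controls 1, 2 and 3. CYP99A3 had 124, 333 and 352 in LM1, LM2 and LM3, against 348, 485 and 478 in controls 1, 2 and 3. For both genes LM1 was far below all controls, while LM2, LM3 or both reached into the control range. The log2 fold changes were -0.91 ± 0.48 for CYP99A2 and -0.78 ± 0.36 for CYP99A3. Without LM1 they were -0.28 and -0.32.

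OsMAS encodes momilactone A synthase, the dehydrogenase of the last step to momilactone A. Its signal was 43.3, 131 and 122 in LM1, LM2 and LM3, against 232, 244 and 189 in controls 1, 2 and 3. Here the groups did not overlap, and each line was below every control. The log2 fold change was -1.15 ± 0.35 with all arrays and -0.73 without LM1, with an adjusted p of 0.154 and 0.126. Over LM2 and LM3 alone OsMAS was 1.66-fold below the control mean, while CPS4, CYP99A2 and CYP99A3 were 1.24-fold, 1.21-fold and 1.25-fold below theirs.

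The P450 genes CYP71Z6 and CYP71Z7, neighbours on chromosome 2, were the other genes whose groups did not overlap. CYP71Z7 hydroxylates ent-cassadiene in phytocassane synthesis. Its signal was 247, 1108 and 1225 in LM1, LM2 and LM3, against 1823, 2378 and 2627 in controls 1, 2 and 3. LM1 was 8.61-fold below the control mean, the largest such difference among the 10. The log2 fold change was -1.66 ± 0.51 (adjusted p = 0.157) with all arrays. Without LM1 it was -0.94 and passed with limma (adjusted p = 0.0242), in a comparison where 3.07% of all probe sets passed.

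CYP71Z6 hydroxylates ent-isokaurene, of another branch of the ent route. Its signal was 370, 526 and 540 in LM1, LM2 and LM3, against 868, 865 and 767 in controls 1, 2 and 3. Its 3 lines lay closest together of the 10 probe sets, with a log2 range of 0.53. The log2 fold change of -0.80 ± 0.18 was -0.63 without LM1, so its size rested less on LM1 than that of CPS2, CPS4 or CYP71Z7. Its adjusted p of 0.064 was 0.0338 with quantile normalization, where it was the only one of the 10 to pass and 2.11% of all probe sets did.

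CYP76M7 is known as the enzyme that hydroxylates ent-cassadiene and as a gene of the chromosome 2 cluster. Its probe set gave no usable level and did not pass the signal filter, with 3.06, 3.47 and 1.62 in LM1, LM2 and LM3, against 2.91, 10.7 and 9.94 in controls 1, 2 and 3. The lowest mean of any tested probe set corresponded to a signal of 36.1. The gene record that carries the name lies on chromosome 6 in the reference, and it also holds an older locus identifier of the series used for the chromosome 2 genes CYP76M8 and CYP71Z6. Whether this probe set reads the phytocassane enzyme is therefore uncertain.

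**Figure D2:**
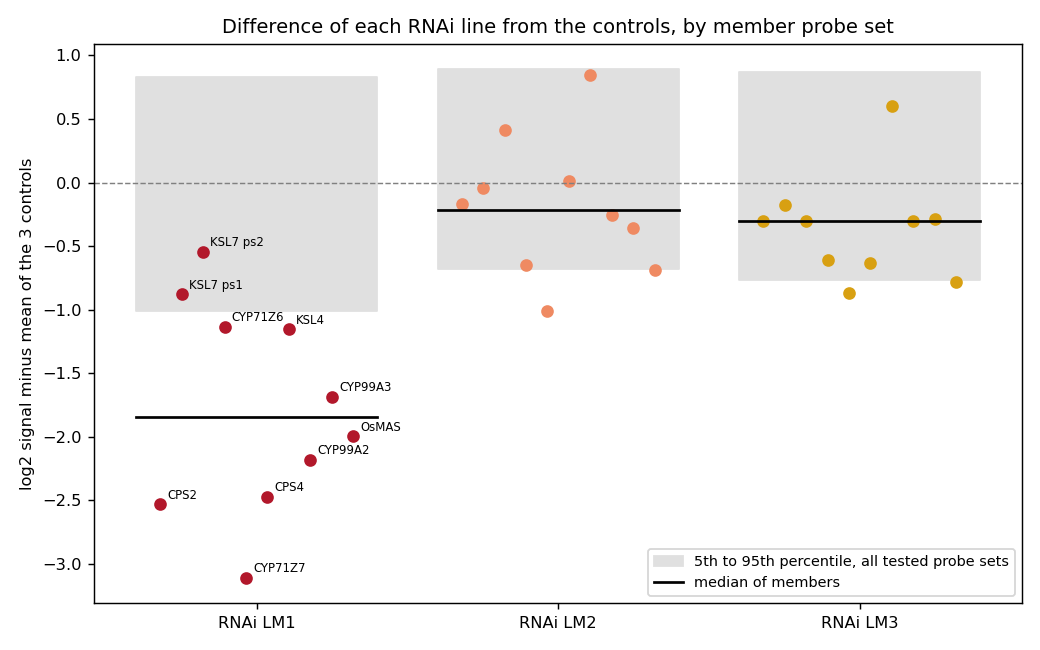
Log2 signal of each RNAi line minus the mean of the 3 controls, for the 10 tested probe sets in the same order from left to right in each column, with their median as a black line and the 5th to 95th percentile of all tested probe sets in grey. In LM1 the points run from -3.11 to -0.54 around a median of -1.84, and in LM2 and LM3 they lie around medians of -0.21 and -0.30.

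Set against the other RNAi lines instead of the controls, LM1 had a median log2 difference of -1.62 from the mean of LM2 and LM3 over the 10 probe sets, from -2.30 for CPS2 to -0.51 for CYP71Z6. The same difference had a median of -0.05 over all tested probe sets. At 7 of the 10 it was -1 or lower, beside 5.18% of all. In LM2 and LM3 without LM1 the 10 had a median log2 fold change of -0.29, with 8 lower and 2 higher, beside 43.7% of all probe sets lower. The array of LM1 also stood somewhat apart over all tested probe sets, with correlations of 0.9676 and 0.9671 with LM2 and LM3, which had 0.9789 with each other. Its part in the values of these genes was not tested. All control arrays shared 1 hybridization entry in the instrument records and all RNAi arrays another, so that entry and group cannot be told apart. LM1, LM2 and LM3 shared that entry but differed in the instrument module recorded, which was 1 for LM1 and control 1, 2 for LM2 and control 2, and 3 for LM3 and control 3. With 1 array per group on each module, LM1 and its module cannot be told apart within the RNAi group, and control 1, on the same module, had a median of -0.29 for the 10 probe sets against the control mean.

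The leaf label was checked with markers. The 5 leaf genes found by name (RBCS, RCA, CAB2R, GLO1 and PORB) were bright, with a summed signal over 13 probe sets of 241800 to 268600 in RNAi and 253000 to 294200 in controls. The 5 root genes summed to 1069 to 1596 in RNAi, lowest in LM1, and 1735 to 2134 in controls, most of it from LSI1 (842 to 1396 in RNAi, 1573 to 1794 in controls), while LSI2, another silicon transporter of roots, lay between 1.16 and 9.49. The 4 genes of dividing cells summed to 481 in LM1, 705 to 800 in LM2 and LM3, and 697 to 782 in controls, and the 3 seed genes to 82.6 to 135 in RNAi and 119 to 145 in controls. No probe set of these lists passed with limma. All 4 sums were lowest in LM1, as were the phytoalexin genes, but single genes carried much of this. Among dividing cell genes PCNA had 330 in LM1 against a control mean of 596, CDKB2;1 had 78.1 against 89.4 and CYCB2;1 had 47.6 against 46.2. The probe sets of CYCB2;2 did not pass the signal filter. In the leaf list LM1 differed from the controls by -0.61 and -0.86 on the log2 scale at CAB2R, and by -0.26 to 0.11 at the other tested probe sets. The part of other cell types in the LM1 values was not tested.

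Along the reference, KSL7, CYP71Z6, CYP71Z7 and CPS2 stand side by side on chromosome 2, with CYP76M5 and CYP76M8 on the side of KSL7, and KSL5, KSL6 and CYP76M6 on the side of CPS2. On chromosome 4, the order is CPS4, CYP99A3, OsMAS, KSL4 and CYP99A2, with 1 more gene, without a listed probe set, between CYP99A3 and OsMAS. This order is that of a japonica assembly (ASM3414082v1), and no coordinates were taken from it. In the chromosome 4 cluster all 5 tested probe sets were lowest in LM1, and their median log2 difference from the controls was -2.0 in LM1, -0.26 in LM2 and -0.30 in LM3. In the chromosome 2 cluster, from CYP76M5 to CYP76M6, 8 of 11 were lowest in LM1, with medians of -0.88, -0.17 and -0.18. Some genes of this cluster are not among the genes chosen here. Of these, LM1 differed from the controls by -2.60 at an unnamed gene (LOC4329723), -1.25 at CYP76M8 and -0.64 at KSL5. It differed by -0.03 at CYP76M5 and by -0.72 and 0.00 at the probe sets of CYP76M6.

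The tested genes next to the clusters were mostly near their control level in LM1. Up to 12 coding genes on either side had 12 probe sets by the chromosome 2 cluster and 17 by the chromosome 4 cluster. Of these, 9 by each cluster were tested. Those left out for low signal had LM1 differences from the controls of -1.87 to 1.01 on the log2 scale. By the chromosome 4 cluster 4 of the 9 were lowest in LM1, and the median log2 difference was -0.18 in LM1, -0.13 in LM2 and -0.15 in LM3. By the chromosome 2 cluster 0 of the 9 were lowest in LM1, with medians of -0.16, -0.04 and 0.00. All tested genes of the chromosome 4 cluster and part of those of the chromosome 2 cluster were chosen by their signals in these arrays. The flanking genes were not, so the choice favoured a contrast between cluster and flank, which is given as a description. A difference of -1 or lower in LM1 was met by 5 of 5 in the chromosome 4 cluster and 5 of 11 in the chromosome 2 cluster. It was met by 0 of the 9 tested flanking probe sets of each. ARP9, an actin-related protein gene next to CPS4, came closest, at -0.98 and -0.74 for its 2 probe sets, whose log2 fold changes between the groups were -1.24 and -0.42. At both, all RNAi arrays lay below all controls. The first was lowest in LM3, at -1.765 from the control mean with a low signal of 32.4, so a flanking gene was also far down in another line. RIBA2, a riboflavin synthesis gene near the chromosome 2 cluster with other genes between, was lower by 0.57 on the log2 scale in RNAi (limma, adjusted p = 0.031). Its signal was 4281, 4929 and 4064 in LM1, LM2 and LM3, against 6359, 6849 and 6492 in controls 1, 2 and 3. It was the 1 of 9 there that passed, beside 2.1% of all, and did not pass with quantile normalization (limma, adjusted p = 0.0524). ARP9 and RIBA2 were both named after their values were seen.

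**Figure D3:**
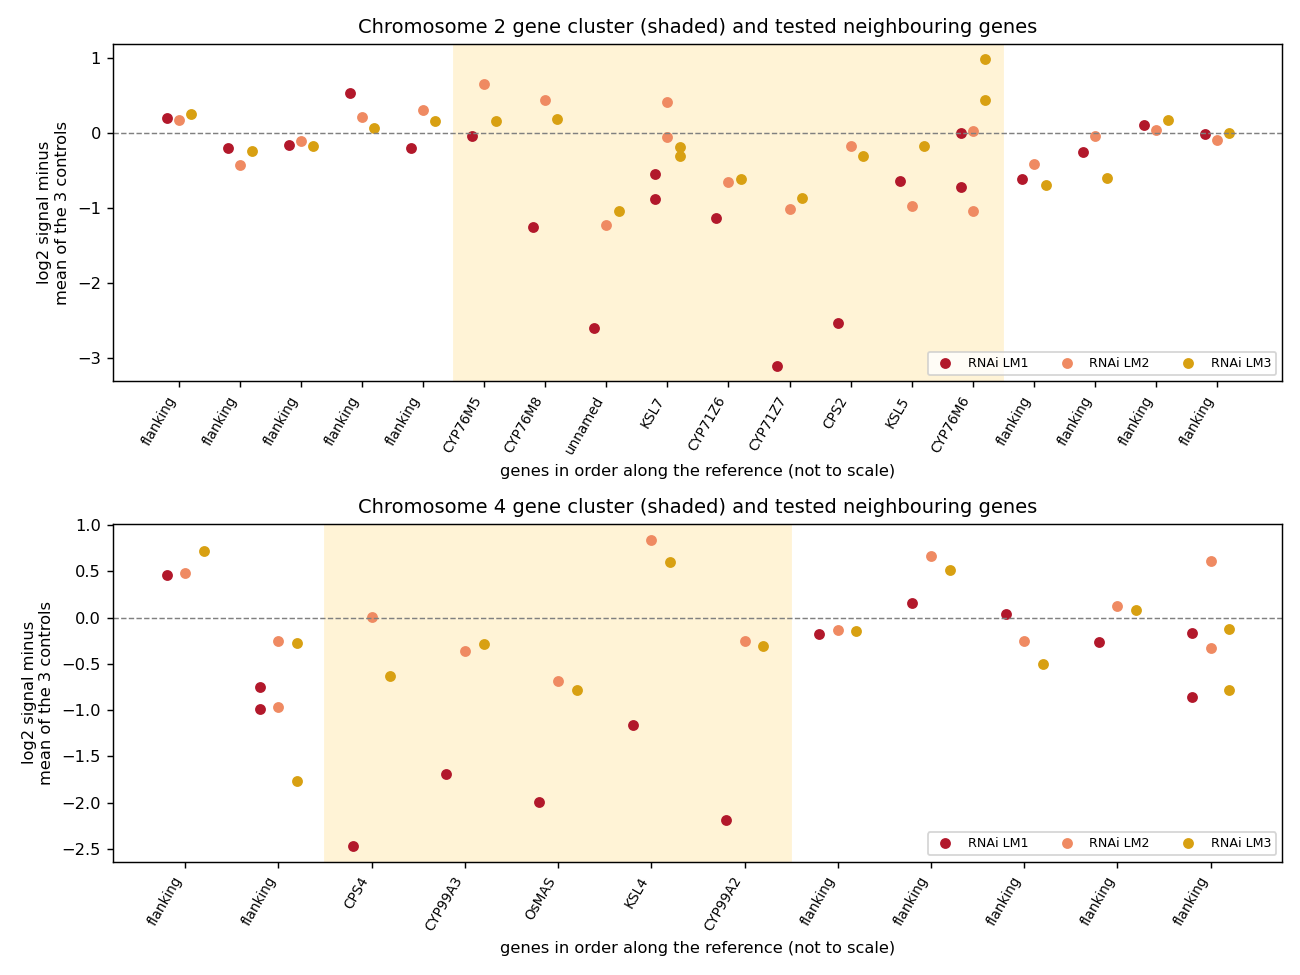
Log2 signal of each RNAi line minus the control mean for the tested probe sets of the chromosome 2 and chromosome 4 clusters (shaded) and of their flanking genes, in their order along the reference and not to scale. LM1 points drop within the shaded blocks, to -3.11 at CYP71Z7 and -2.47 at CPS4, while no tested flanking LM1 point reaches -1. The blocks hold the genes chosen by their signals in these arrays.

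Inside the chromosome 2 cluster, an unnamed gene between CYP76M8 and KSL7 (LOC4329723) was low in all 3 lines. It was singled out after its values were seen. Its signal was 96.9, 276 and 317 in LM1, LM2 and LM3, against 604, 519 and 948 in controls 1, 2 and 3, so the groups did not overlap. The log2 fold change was -1.62 ± 0.40 (limma, adjusted p = 0.0869), and -1.13 without LM1 (adjusted p = 0.0558). The gene table lists no name or synonym for it. The older identifier on the CYP76M7 record falls, in its numbering, between those of CYP76M8 and CYP71Z6, the stretch where this gene lies, and whether CYP76M7 and this gene are the same gene is not given in the tables.

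Other genes of the pathway were looked up by name, from lists drawn up with earlier results known. Of 7 further diterpenoid genes with a probe set, read by 8 probe sets, 7 probe sets were tested and 0 passed with limma in either direction, beside 2.1% of all. None had an unadjusted p under 0.05, beside 15.6% of all, and their median log2 fold change was -0.08. LM1 was the lowest array at 4 of the 7, CPS1 among them, beside 23.8% of all. CYP701A8, an oxidase related to the gibberellin enzyme and recruited to phytoalexins, had 273, 949 and 814 in LM1, LM2 and LM3, against 757, 611 and 1389 in controls 1, 2 and 3. LM1 lay below all controls, and the other lines lay among them (log2 fold change -0.52 ± 0.45). CYP76M8, a P450 of the chromosome 2 cluster, was also lowest in LM1, with 116, 411 and 342 in LM1, LM2 and LM3, against 222, 382 and 311 in controls 1, 2 and 3. LM2 was above all controls, and the name of the probe set marks it as reading several genes. CYP76M5, a related P450, had a log2 fold change of 0.26 ± 0.40. KSL5, another cyclase of the cluster, differed by -0.59 ± 0.27 on the log2 scale (limma, adjusted p = 0.346), and CPS1, the gibberellin cyclase, by 0.13 ± 0.33. KSL10, a cyclase of oryzalexin synthesis, did not pass the signal filter, with 5.26 to 58.6 in RNAi and 13.5 to 62.0 in controls.

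Of the genes that supply the precursor, 2 were found and neither passed with limma, beside 2.1% of all probe sets. DXR, which acts early in the plastid pathway to isoprenoids, had 3253, 2700 and 3260 in LM1, LM2 and LM3, against 4413, 4250 and 4300 in controls 1, 2 and 3. All lines were below all controls, to a like degree, with a log2 fold change of -0.50 ± 0.11 (limma, adjusted p = 0.067). Without LM1 it was -0.54 and passed (limma, adjusted p = 0.0433), in a comparison where 3.07% of all probe sets passed. MCS, of the same plastid pathway, had a log2 fold change of -0.01 ± 0.15.

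Regulators and elicitor sensors had 13 probe sets for 11 genes, of which 12 probe sets were tested, 0 passed with limma, beside 2.1% of all, and 4 had an unadjusted p under 0.05, beside 15.6% of all. WRKY76, a transcription factor known to repress phytoalexin genes in rice, had 3243, 1296 and 1120 in LM1, LM2 and LM3, against 4395, 2491 and 3414 in controls 1, 2 and 3. LM2 and LM3 were below all controls and LM1 was not, the reverse of the order in the synthesis genes. Its log2 fold change was -0.99 ± 0.37 (limma, adjusted p = 0.242) with all arrays. Leaving out LM1, it was -1.46 and passed (limma, adjusted p = 0.0128), as did 3.07% of all probe sets. CEBIP, a receptor for chitin fragments, had 7205, 1807 and 1748 in LM1, LM2 and LM3, against 1411, 1140 and 962 in controls 1, 2 and 3. It was highest in LM1 by far, and the groups did not overlap (log2 fold change 1.28 ± 0.47, adjusted p = 0.236). WRKY62, a near relative of WRKY76, differed by -0.67 ± 0.30 on the log2 scale (limma, adjusted p = 0.333). The 2 probe sets matched to MPK3, a mitogen-activated protein kinase of defence signalling, belong to different gene records and had -0.30 ± 0.11 and -0.41 ± 0.16. OsbZIP79, a bZIP transcription factor, did not pass the signal filter, with 5.48 to 32.5 in RNAi and 7.39 to 12.5 in controls. None of the 3 enzymes of phytoalexins of other classes had a gene of that name in the table.

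Genes listed for the gibberellin branch, which draws on the same ent precursors, had higher mean signals in RNAi at all 4 tested probe sets. These were assigned to 3 genes, and only the name of the KAO probe set does not mark it as reading several genes. Of all probe sets, 45.7% had lower mean signals in RNAi. With limma 0 of the 4 passed, beside 1.09% of all called higher. An unadjusted p under 0.05 was met by 3 of the 4, beside 15.6% of all. CPS1, the gibberellin cyclase, was counted with the diterpenoid genes above and not in this list. It had 274, 495 and 680 in LM1, LM2 and LM3, against 488, 288 and 499 in controls 1, 2 and 3. Its groups overlapped, and LM1 was its lowest array. KAO, the kaurenoic acid oxidase of gibberellin synthesis, had 2716, 1586 and 1717 in LM1, LM2 and LM3, against 1154, 757 and 868 in controls 1, 2 and 3. Every line was above every control, LM1 most of all (log2 fold change 1.08 ± 0.23, adjusted p = 0.0523). It passed with 64 added in place of 16 (limma, adjusted p = 0.0462) and with 1 probe set per gene (0.0486). KS1, the kaurene synthase of the hormone route, differed by 0.53 ± 0.20 on the log2 scale (limma, adjusted p = 0.247). The name of its probe set marks it as reading several genes. The 2 probe sets of KO2, the kaurene oxidase also named D35, had 0.83 ± 0.19 and 0.19 ± 0.33 (adjusted p = 0.0675 and 0.821), and the names of both mark them as reading related genes.

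**Figure D4:**
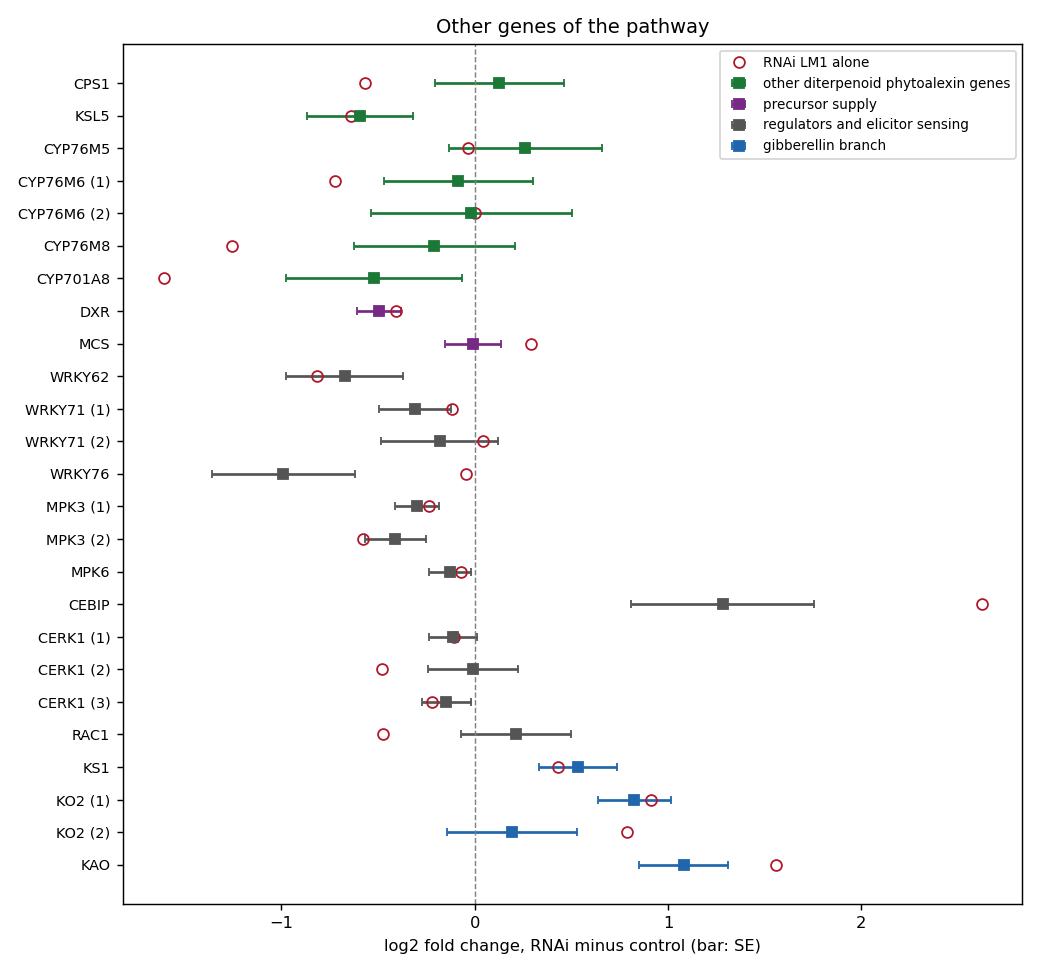
Log2 fold change, RNAi minus control, with its SE for the 25 tested probe sets of the other pathway lists (squares), with the difference of LM1 alone from the control mean as open circles and numbers in brackets for several probe sets of a name. CYP701A8 and CYP76M8 have LM1 points at -1.61 and -1.25, CEBIP has one at 2.62, and the 4 gibberellin probe sets have squares above 0.

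The genes whose signals over the 6 arrays most resembled the mean of the phytoalexin genes were sought among 2653 probe sets of other named genes, by Pearson correlation. The 5 nearest were AGPR (r = 0.9948), GDH2 (0.992), GRF4 (0.9907), CCDA2 (0.9846) and TPP2 (0.984). AGPR acts in arginine synthesis, GDH2 is a glutamate dehydrogenase, GRF4 is a growth-regulating transcription factor and TPP2 is a tripeptidyl peptidase. Each was lowest in LM1, where they were 1.39-fold (AGPR) to 2.69-fold (GRF4) below the control mean. The GRF4 signal in LM1 was 22.3, under the lowest mean of any tested probe set (36.1), so its fold is uncertain. Their log2 fold changes between the groups ran from -0.59 (GRF4) to -0.19 (CCDA2). A correlation above 0.9 was reached by 4.03% of the candidates. These correlations are over 6 arrays, of which LM1 lay far below the rest in the mean of the phytoalexin genes, and are given as a description.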

How the data were processed

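The authors deposited intensity values, 1 linear signal per probe set and array. The submitters' processing notes name GCOS 1.2, without the summary or scaling used. The 2%-trimmed mean of the deposited intensity was 500.1 in control 3 and 99.86 to 117.8 elsewhere, so arrays were brought to a common trimmed mean of 500 and analysed as log2(signal + 16), a scale that understates the fold changes of low genes. The 50% of probe sets with the lowest mean log2 signal were left out, and 28597 entered limma 3.58.1 (R 4.3.3, lmFit and eBayes with trend, two-sided, Benjamini-Hochberg over all of them). SAM was rebuilt with all 20 label permutations at a q of 5%. Precision is limited by the number of arrays, 3 per group.

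Probe sets were named through the platform annotation and a RefSeq gene table (ASM3414082v1, japonica). There 22436 had 1 gene, 95 several and 34850 none listed, and all 17905 genes were found in the gene table. OsSRT1 was not analysed here. Names that fitted an unrelated gene by synonym were left out, and a gene that 2 lists named was counted in 1 of them.

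The genes described and all lists were chosen with earlier results of these data known. By the rule for naming, the text gives all 10 genes, up to 4 of the smallest adjusted p per list, and the 5 nearest patterns. Others in the pathway lists were named for their roles.

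In 5 simulations of these 28597 probe sets, limma found 30% of 2-fold and 68.4% of 4-fold changes among 200 changed probe sets.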

Additional observations from a re-analysis of the deposited data

How the results depend on the processing

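Over all tested probe sets, 601 passed with 51.9% of them higher in RNAi, against 37 (64.9% higher) on the signals as deposited, 394 with no filter, 303 without a trend in eBayes and 240 to 877 when 1 array was left out (240 without control 2, 349 without LM2, 350 without LM3, 361 without control 1, 339 without control 3). As deposited, the median of all probe sets shifted to -0.52, and the phytoalexin genes lay 0.83 below it (-0.83), against -0.89 after scaling. Of the phytoalexin probe sets, 0 passed, 1 with quantile normalization (CYP71Z6) and 0 to 1 leaving out an array (CYP71Z7 without LM1). Their median of -0.86 was -0.29 without LM1 and lay between -1.12 and -0.75 under the others on scaled signals. Of the other pathway probe sets, 0 passed, 1 with 64 added, with SAM and with 1 probe set per gene (KAO, KO2 and KAO), and 0 to 2 leaving out an array (DXR and WRKY76 without LM1). KSL4 was -0.54 as deposited and -0.31 to 0.77 leaving out an array, and the dimmer KSL7 probe set -0.42 to 0.05 (0.0546 without LM1). The labels do not say that equal numbers pair the arrays. Equal numbers shared an instrument module. Over all tested probe sets, the deviations of same-numbered arrays from their group means had correlations of -0.0452, 0.00838 and 0.00207. For the phytoalexin probe sets, LM1 and control 1, both on module 1, had the lowest medians of their groups (-1.84 and -0.29 against the control mean). The part of the module in these values was not tested. With the replicate block, 424 probe sets passed, 0 of them phytoalexin genes and 1 in the other lists (KAO, limma adjusted p = 0.0164). With 3 arrays per group, limma missed most simulated 2-fold changes. These were equal in all RNAi arrays, unlike the differences of the phytoalexin genes, to which the simulation does not apply.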
